A study of Mus musculus with 35 samples.

Results

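The 10 genes described here encode the kinase mTOR, its partner raptor, its bound inhibitor DEPTOR, both subunits of the TSC brake, and the stress-induced inhibitors of the pathway, namely the DDIT4 pair and the 3 sestrins. They were taken by name (Ddit4, Ddit4l, Sesn1, Sesn2, Sesn3, Deptor, Mtor, Rptor, Tsc1 and Tsc2) from 49568 gene names in count tables of mouse hypothalamus. All 10 had enough counts to be tested, among 18063 genes that did. Each of the 35 libraries held polyA RNA from the hypothalamus of 1 male mouse of the strain given as B6/J, sampled at Zeitgeber time 16, that is 16 h after lights-on, during the dark phase in which mice feed. Control (wild type) mice had free access to food (n = 10) or had been fasted for 16 h from lights-on (n = 10). Mice of the genotype PER2-S662D, in which the clock protein PER2 has an aspartate at a serine that can be phosphorylated, either kept their food (n = 5) or were fasted (n = 5). The label Per2 ko belongs to another set of fasted mice (n = 5), and no fed mice of that label were analysed here. The age of the mice, and how the PER2-S662D allele and the knockout were made, are not given in the sources used here.

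mTOR is a protein kinase that promotes protein synthesis and growth when amino acids, insulin and energy are plentiful. As mTORC1 it works with raptor, which recruits its substrates, and it is switched on at the lysosome by the GTPase RHEB. The TSC1 and TSC2 proteins form a complex that turns RHEB off, DDIT4 (also called REDD1) and its relative DDIT4L (REDD2) act through that complex, sestrins restrain the amino acid branch through the GATOR complexes, and DEPTOR binds mTOR itself. In the hypothalamus, mTOR signalling is known as one of the nutrient signals that act on feeding. The measurements below are of RNA and say nothing of kinase activity.

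Libraries held 17959586 to 37027342 counted fragments, with the deepest among the PER2-S662D mice. Levels are given as CPM, the count of a gene scaled to a common library size with TMM. Transcripts of Per2, the altered gene, stood at 26.1 to 33.1 CPM in fasted controls and at 28.2 to 33.4 CPM in the libraries labelled Per2 ko, so these counts did not separate that label from the controls, and the group is called the labelled knockout throughout. In PER2-S662D mice Per2 stood at 16.4 to 22.7 CPM over fed and fasted mice, below every control library. All 6 markers of hypothalamic neurons (Agrp, Pomc, Avp, Oxt, Hcrt, Pmch) were detected in every library. Of 5 pituitary hormone genes, Gh was at 0 counts in 33 libraries, Prl in 31 and Cga in 14. The other pituitary genes, Tshb (1.23 to 3.44 CPM) and Lhb (0.13 to 0.97 CPM), were detected in every library. Summed choroid plexus markers ranged from 18.2 to 1531 CPM between libraries. According to the library numbers in the file headers, control replicates 1 to 5, control replicates 6 to 10, the labelled knockout and the PER2-S662D mice come from separate ranges, so genotype and range cannot be told apart. In addition, 6 of the 10 PER2-S662D libraries (replicates 2, 3 and 4 of each feeding state) carry an additional final digit in that number, the meaning of which is not given in the sources used here. Several results below differ between these sets, and the values by set are printed with the members they touch most.

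Compared per kilobase of exon in fed controls, Ddit4 was the most abundant of the 10 genes and Ddit4l the least. Ddit4 stood at 25.0 ± 4.34 CPM per kb (SD, n = 10) and its relative Ddit4l at 1.09 ± 0.22 CPM per kb. Tsc2 came second with 15.2 ± 0.56 CPM per kb. Sesn3 (11.5 ± 1.25), Sesn1 (11.1 ± 0.47) and Mtor (11.1 ± 0.78 CPM per kb) followed, and each overlapped its neighbour in this order. Rptor (6.88 ± 0.34) and Tsc1 (6.69 ± 0.27 CPM per kb) overlapped each other, as did Sesn2 (5.47 ± 0.48) and Deptor (4.64 ± 0.34 CPM per kb). The remaining neighbours did not overlap. Ddit4l had only 26 to 176 counts in a library, so its values carry the largest counting error of the 10. For Tsc2, 9.61% of the exon bases overlap Pkd1 on the opposite strand and counting was not stranded, and for Deptor 3.41% overlap a gene on the opposite strand.

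Ddit4, Sesn1 and Ddit4l are the 3 members whose transcripts changed on fasting in controls, so the 250 bases before their RefSeq starts are shown (GRCm38.p6, the assembly also called mm10; 5′ to 3′ on the strand of the gene). Sesn1 has 2 listed starts. Capitals mark CCAAT boxes (CCAAT or its reverse complement ATTGG) and GC boxes (GGGCGG or CCGCCC).
Ddit4, minus strand, chr10:59951771-59952020: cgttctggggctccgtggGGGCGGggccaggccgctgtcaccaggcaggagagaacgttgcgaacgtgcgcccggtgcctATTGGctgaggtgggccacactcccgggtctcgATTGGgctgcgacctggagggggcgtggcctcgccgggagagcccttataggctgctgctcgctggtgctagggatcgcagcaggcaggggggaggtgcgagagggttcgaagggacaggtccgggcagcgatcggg
Sesn1, plus strand, distal start, chr10:41810324-41810573: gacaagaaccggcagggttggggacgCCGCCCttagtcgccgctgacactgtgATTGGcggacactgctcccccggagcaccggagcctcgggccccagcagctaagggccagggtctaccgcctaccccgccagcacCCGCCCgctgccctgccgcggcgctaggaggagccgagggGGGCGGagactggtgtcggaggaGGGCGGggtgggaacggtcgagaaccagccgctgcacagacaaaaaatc
Sesn1, plus strand, proximal start, chr10:41887189-41887438: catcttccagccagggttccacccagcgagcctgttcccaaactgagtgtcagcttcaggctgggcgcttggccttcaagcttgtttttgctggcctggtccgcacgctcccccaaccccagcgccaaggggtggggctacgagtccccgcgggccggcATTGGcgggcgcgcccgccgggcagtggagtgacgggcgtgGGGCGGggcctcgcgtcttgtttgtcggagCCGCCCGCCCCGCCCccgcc
Ddit4l, plus strand, chr3:137623422-137623671: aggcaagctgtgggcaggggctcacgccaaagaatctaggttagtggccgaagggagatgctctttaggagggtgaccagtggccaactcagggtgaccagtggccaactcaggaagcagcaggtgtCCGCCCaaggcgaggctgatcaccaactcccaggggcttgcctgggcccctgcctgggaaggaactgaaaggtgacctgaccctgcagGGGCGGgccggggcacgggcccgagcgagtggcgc
The RefSeq table held 10 windows for 9 of the 10 genes. CCAAT boxes were found in 6 of these 10 windows, against 33.8% of the 32817 windows of all genes, and GC boxes in 7 of 10, against 32.7%. Both motifs were chosen after the sequences had been seen, and the counts describe these windows only. The Ddit4 window holds a pair of CCAAT boxes that begin 170 and 137 bases before the start, whereas the Ddit4l window holds none. Neither of these windows nor any other of the 10 holds, on either strand, the glucocorticoid receptor half-site AGAACA (16.1% of all windows), the FOXO core GTAAACA (3.16%), the clock E-box CACGTG (6.02%), the ATF4 composite element TGATGCAA (0.79%), the cAMP response element TGACGTCA (1.55%) or the TATA box TATAAA (12.4%), which says only that these letters are absent from these stretches.

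**Figure D1:**
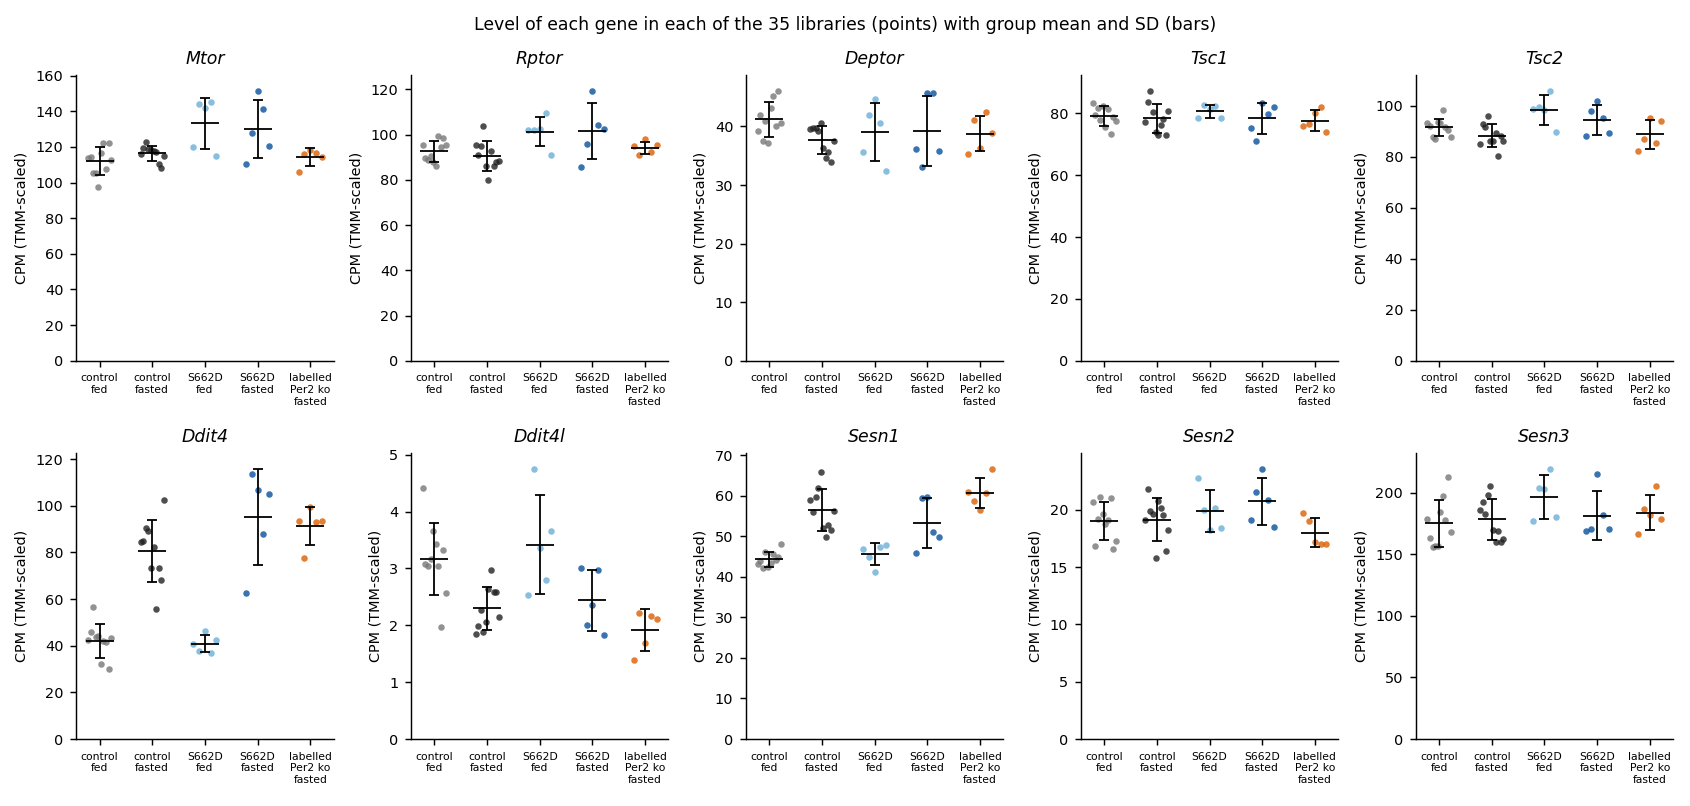
CPM of each of the 10 genes (vertical axis, linear from 0) in the 35 libraries, by group; points are libraries, bars are group mean ± SD. Ddit4 is about as low in fed S662D mice (37.0 to 46.3 CPM) as in fed controls (29.9 to 56.5 CPM) and higher in all 3 fasted groups, while Tsc1 lies between 71.2 and 87.3 CPM in every group.

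Fasting in control mice gave calls for 3 of the 5 stress inhibitors and for none of the other 5 members. Ddit4 and Sesn1 rose and Ddit4l fell, and the other 7 members did not pass the test (edgeR quasi-likelihood test, Benjamini-Hochberg adjusted p below 0.05 over all genes). Of all genes tested, 3.88% were called in this comparison. The median log2 fold change was -0.0036 over the 10 members and 0.0023 over all genes.

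Ddit4 (chr10:59949675-59951770, minus strand), the inhibitor that acts through TSC, ranged from 29.9 to 56.5 CPM (median 42.7) in fed controls. In fasted controls it ranged from 55.6 to 102 CPM (median 83.6). Of the fasted mice, 9 of 10 lay above every fed mouse, and the exception at 55.6 CPM lay just under the highest fed mouse. It rose on the log2 scale by 0.93 (SE 0.11, edgeR adjusted p = 5.5e-07), a 1.91-fold rise. By p-value it was the 34th of all genes tested.

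Sesn1 (chr10:41809935-41908424, plus strand), a sestrin known as a target of p53 and FOXO factors, separated the feeding states completely. Fed controls spanned 42.1 to 48.1 CPM (median 44.0) and fasted controls 49.8 to 65.9 CPM (median 56.1). These ranges do not overlap, which was the case for 0.515% of all genes and for none of the other 9 members. Its log2 fold change was 0.35 (SE 0.05, edgeR adjusted p = 2.1e-06).

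Ddit4l (chr3:137621612-137628333, plus strand) moved opposite to its relative. It ranged from 1.98 to 4.41 CPM (median 3.12) in fed controls and from 1.84 to 2.97 CPM (median 2.21) in fasted controls, and every fasted mouse lay below the median of the fed mice. On the log2 scale it fell by 0.46 (SE 0.13, edgeR adjusted p = 0.037). This call lay close to the threshold and was lost when any of 11 single libraries was left out, with adjusted p-values of 0.0107 to 0.104 over the 20 omissions.

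The remaining inhibitors, Sesn2, Sesn3 and Deptor, did not pass the test over all controls, and for Sesn3 and Deptor the sets of controls given further on differed. Sesn2 (chr4:132492032-132510501), a sestrin that senses leucine, stood at 19.0 ± 1.68 CPM in fed and 19.1 ± 1.86 CPM in fasted controls. The 95% interval of its log2 fold change ran from -0.11 to 0.12. Sesn3 (chr9:14275067-14333101) stood at 175.3 ± 19.1 and 178.7 ± 16.6 CPM, with an interval from -0.09 to 0.15. Deptor (chr15:55112317-55259271) stood at 41.2 ± 2.98 and 37.7 ± 2.43 CPM, and its log2 fold change of -0.13 did not pass the adjustment (95% interval -0.24 to -0.01, unadjusted p = 0.029, edgeR adjusted p = 0.288).

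The kinase, its scaffold and the TSC subunits did not pass the test on fasting, and all 4 intervals include 0. Mtor (chr4:148448611-148557683) was at 111.9 ± 7.86 CPM in fed and 116.5 ± 4.29 CPM in fasted controls (interval of the log2 fold change -0.04 to 0.15). Rptor (chr11:119602905-119899576), which encodes raptor, was at 92.7 ± 4.64 and 90.6 ± 6.55 CPM (interval -0.12 to 0.06). Tsc1 (chr2:28641228-28691167), whose protein stabilises TSC2, was at 79.2 ± 3.20 and 78.4 ± 4.69 CPM (interval -0.08 to 0.06). Tsc2 (chr17:24595937-24632629), whose protein turns off RHEB, was at 91.6 ± 3.36 and 88.2 ± 4.51 CPM (interval -0.13 to 0.02). For these 4 genes a rise or fall of the size seen for Ddit4 lies outside the interval.

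Markers of some cell types moved in the same comparison. Of 6 astrocyte markers, Gjb6 and Aldh1l1 were higher and Aqp4 lower in fasted controls, with a summed level of 1114 to 1243 CPM in fasted and 1102 to 1184 CPM in fed mice. Of 6 microglial markers 2 were lower, with sums of 131 to 188 CPM in fasted and 161 to 187 CPM in fed mice, and of 6 endothelial markers 2 were lower, with sums of 144 to 173 and 166 to 200 CPM. Also higher in fasted controls were 1 of 6 hypothalamic neuron, 1 of 6 oligodendrocyte and 1 of 3 oligodendrocyte precursor markers. No marker of the lists named here was at 0 in any library. Their part in the results for Ddit4, Sesn1 and Ddit4l was not tested, and in tissue RNA fewer cells of a type cannot be told apart from less RNA per cell.

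**Figure D2:**
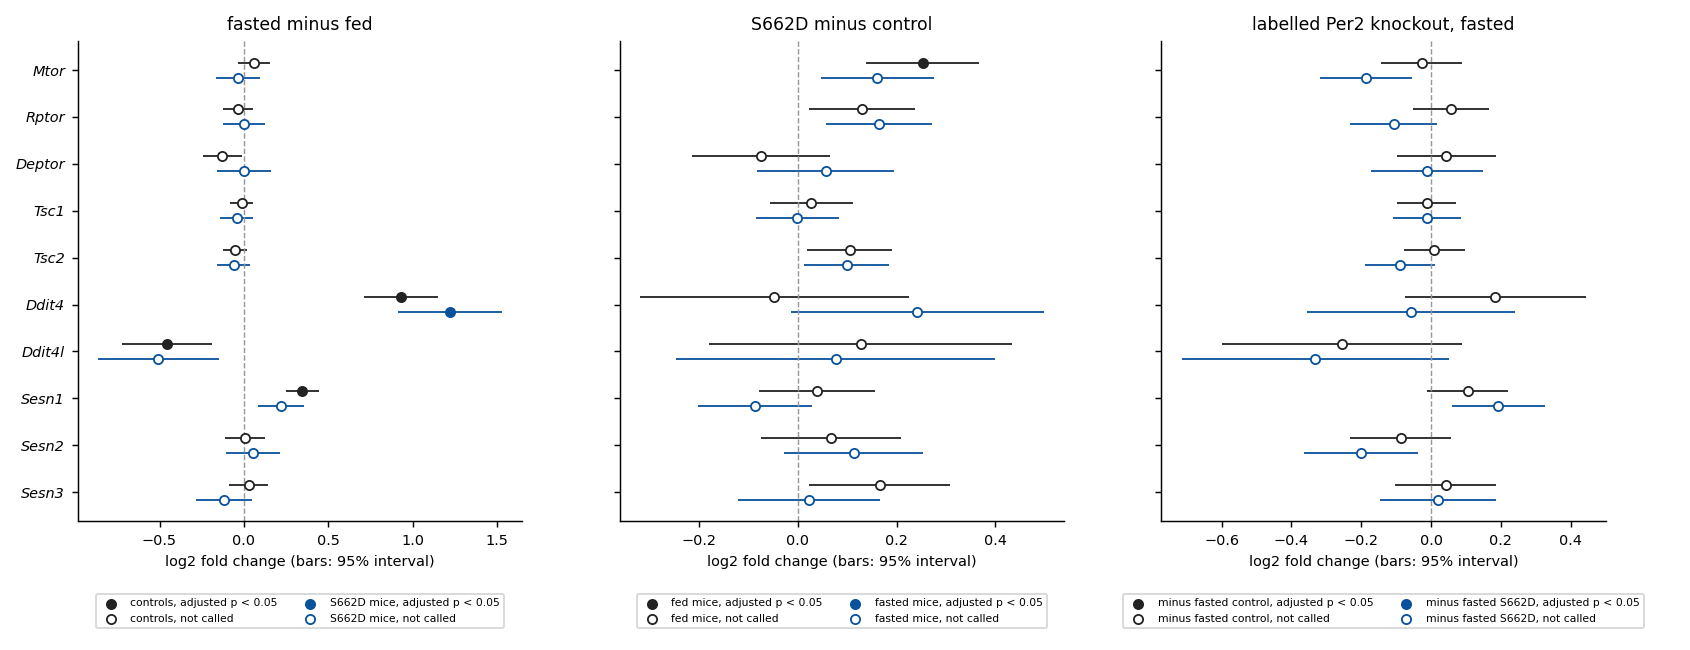
Log2 fold change (horizontal axes, with 95% intervals) of the 10 genes for fasting, for S662D against control and for the labelled knockout; filled points passed the test, open points did not. Filled points are Ddit4, Sesn1 and Ddit4l for fasting in controls, Ddit4 for fasting in S662D mice, and Mtor for S662D against control in fed mice.

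The fasting response was then compared between the sets of control mice, replicates 1 to 5 and replicates 6 to 10. Ddit4 rose in both, from 46.6 ± 5.72 to 84.5 ± 6.86 CPM in the first set (log2 fold change 0.86, edgeR adjusted p = 9.7e-05) and from 37.8 ± 6.25 to 76.4 ± 17.5 CPM in the second (1.01, adjusted p = 0.00234; SD, n = 5 in each group of mice). Sesn1 rose from 43.5 ± 1.60 to 60.5 ± 3.71 CPM in the first set (0.47, adjusted p = 8.03e-06), and the second gave 45.2 ± 1.83 CPM in fed and 52.4 ± 2.36 CPM in fasted mice (0.21, adjusted p = 0.0717). Fed and fasted mice of Sesn1 did not overlap in either set, where each group holds 5 mice. This separation was found for 9.72% of all genes in the first set and 5.95% in the second. With Sesn1 included, 5 of the 10 members showed it in the first set and 3 in the second. Ddit4l fell in the first set, from 3.47 ± 0.58 to 2.01 ± 0.17 CPM (-0.79, adjusted p = 0.00625), whereas the second set gave 2.87 ± 0.60 and 2.59 ± 0.29 CPM (-0.14, adjusted p = 0.734).

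The size of the response itself differed between the sets for 4 members, in a fit of the 20 control libraries with an interaction term, a comparison chosen after seeing the data. In that fit 16.7% of all genes differed. The log2 fold change on fasting in the first set minus that in the second was 0.45 for Sesn3 (adjusted p = 0.000197), 0.29 for Deptor (0.00585), 0.26 for Sesn1 (0.00833) and 0.18 for Mtor (0.0356). For Ddit4 it was -0.15 (SE 0.20, adjusted p = 0.673) and for Ddit4l -0.65 (SE 0.23, adjusted p = 0.0517). The Sesn3 values had opposite signs: it rose from 162.4 ± 9.70 to 193.1 ± 9.07 CPM in the first set (0.25, adjusted p = 0.0177), and stood at 188.2 ± 17.5 CPM in fed and 164.4 ± 4.95 CPM in fasted mice of the second (-0.20, adjusted p = 0.129). The value of 0.03 over all controls lies between these. Deptor stood at 39.4 ± 2.08 and 39.8 ± 0.47 CPM in fed and fasted mice of the first set and at 43.0 ± 2.69 and 35.6 ± 1.46 CPM in the second (-0.27, adjusted p = 0.0835).

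**Figure D3:**
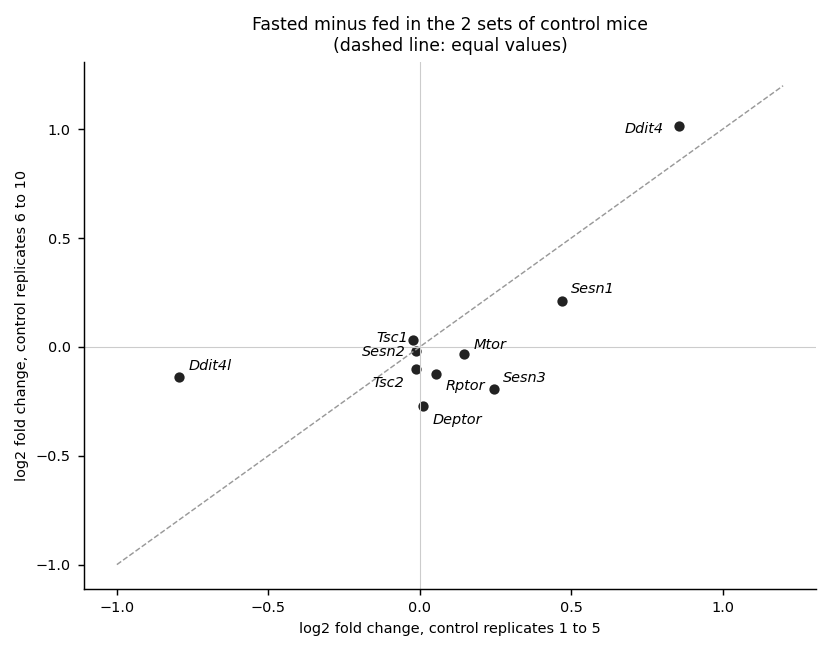
Log2 fold change on fasting in control replicates 1 to 5 (horizontal axis) and 6 to 10 (vertical axis) for each of the 10 genes; the dashed line marks equal values. Ddit4 lies high in both sets (0.86 and 1.01), Sesn1 is positive in both, and Sesn3 lies in the lower right quadrant, positive in the first set and negative in the second.

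Fasting in PER2-S662D mice gave 1 call among the 10 members, Ddit4, where 2.64% of all genes were called. In fed S662D mice Ddit4 stood at 40.7, 37.9, 46.3, 37.0 and 42.7 CPM. In fasted S662D mice it stood at 62.4, 113.8, 106.6, 87.7 and 105.1 CPM. All 5 fasted mice lay above all 5 fed mice, a separation found for 3.3% of all genes and for no other member. This was a log2 fold change of 1.22 (SE 0.15, edgeR adjusted p = 2.8e-06). With the 4 libraries without the additional digit alone it was 1.01 (adjusted p = 0.229), and with the 6 libraries that carry it 1.35 (adjusted p = 2e-05).

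Sesn1 and Ddit4l had the sign seen in controls but did not pass the test in S662D mice. Sesn1 stood at 46.8, 44.9, 41.1, 47.4 and 47.8 CPM in fed and at 45.8, 59.5, 59.7, 51.0 and 49.9 CPM in fasted S662D mice. Of the fasted mice, 4 of 5 lay above every fed mouse, and the fifth lay among them. The log2 fold change was 0.22 (SE 0.07, edgeR adjusted p = 0.0628). It was 0.35 (adjusted p = 0.00569) in the libraries with the digit and 0.02 (adjusted p = 0.999) in those without. Ddit4l stood at 3.42 ± 0.87 CPM in fed and 2.44 ± 0.54 CPM in fasted S662D mice (-0.51, SE 0.18, adjusted p = 0.131). The other 7 members had log2 fold changes between -0.12 (Sesn3) and 0.05 (Sesn2).

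No member, and 0% of all genes, differed between the fasting responses of S662D and control mice in edgeR's interaction test. Without adjustment, 0 of the 10 members and 1151 of the 18063 genes (6.37%) had a p below 0.05, and DESeq2 called 0 members. For Ddit4 the response in S662D mice minus that in controls was 0.29 on the log2 scale, with a 95% interval from -0.09 to 0.66 (adjusted p = 0.817). For Sesn1 it was -0.13, with an interval from -0.29 to 0.04 (adjusted p = 0.819). Both intervals include 0.

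Against controls in the same feeding state, Mtor passed the edgeR test in fed but not in fasted PER2-S662D mice, and the call depended on the libraries with the additional digit. In fed mice, where 4.69% of all genes were called, Mtor was the only member called, at a log2 fold change of 0.25 (SE 0.06, edgeR adjusted p = 0.00826). Fed S662D mice stood at 120.2, 144.0, 142.1, 145.0 and 114.9 CPM, and fed controls ranged from 97.7 to 122.5 CPM (median 113.2). The 3 S662D libraries above every control are those with the additional digit (143.7 ± 1.46 CPM, SD, n = 3), and the others (117.5 ± 3.75 CPM, n = 2) lie inside the range of the controls. The log2 fold change was 0.36 (adjusted p = 4.1e-06) with the first and 0.07 (adjusted p = 1.0) with the second, and 0.07 (adjusted p = 0.853) with the digit as a term. The call was also lost without any 1 of these 3 libraries (adjusted p = 0.0647, 0.0542 and 0.0824) and with control replicates 6 to 10 alone (0.20, adjusted p = 0.241).

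In fasted mice, where 5.57% of all genes were called, edgeR called 0 of the 10 members and DESeq2 called 1, Rptor. Without adjustment 3 members had a p below 0.05 in edgeR, namely Rptor (0.16, adjusted p = 0.0554), Mtor (0.16, adjusted p = 0.0863) and Tsc2 (0.10, adjusted p = 0.171). With the digit libraries alone the values were 0.23 (adjusted p = 0.0027) for Rptor, 0.27 (0.000249) for Mtor and 0.16 (0.0183) for Tsc2, and with the other S662D libraries 0.06, -0.01 and 0.01 (adjusted p = 0.997 for each). Rptor stood at 101.6 ± 12.4 CPM in fasted S662D mice and at 90.6 ± 6.55 CPM in fasted controls. Mtor stood at 110.3, 127.6, 151.6, 141.2 and 120.5 CPM in fasted S662D mice, and the 3 libraries with the digit are again the highest. The stress inhibitors gave no call in either feeding state. Ddit4 was at 40.9 ± 3.75 CPM in fed S662D mice against 42.2 ± 7.31 CPM in fed controls, and at 95.1 ± 20.6 CPM in fasted S662D mice against 80.5 ± 13.3 CPM in fasted controls (0.24, 95% interval -0.01 to 0.50; 0.35 with and 0.06 without the digit).

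Within the 10 PER2-S662D mice, libraries with the digit were compared with those without in a fit that held the feeding state, again chosen after seeing the data. Of all genes, 14.6% were called. Mtor was higher in libraries with the digit by 0.28 on the log2 scale (SE 0.05, edgeR adjusted p = 0.00109), Deptor by 0.25 (adjusted p = 0.0387) and Sesn3 by 0.19 (adjusted p = 0.0301). The other 7 members were not called, with Ddit4 at 0.13 (SE 0.17, adjusted p = 0.686). Cell type markers were compared between S662D mice and controls, not by the digit. In that comparison 4.69% of all genes were called in fed and 5.57% in fasted mice. In fed S662D mice 2 of 6 endothelial markers were higher than in controls (sums of 180 to 214 against 166 to 200 CPM). So were 2 of 3 oligodendrocyte precursor markers (290 to 347 against 263 to 288 CPM), while 2 of 6 oligodendrocyte markers were lower (7465 to 8933 against 7472 to 10044 CPM). In fasted mice 4 of 6 endothelial and 2 of 3 precursor markers were higher, with sums of 153 to 218 against 144 to 173 CPM and of 276 to 376 against 260 to 314 CPM. No marker of these lists was at 0 in any library, and their part in the Mtor and Rptor values was not tested.

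**Figure D4:**
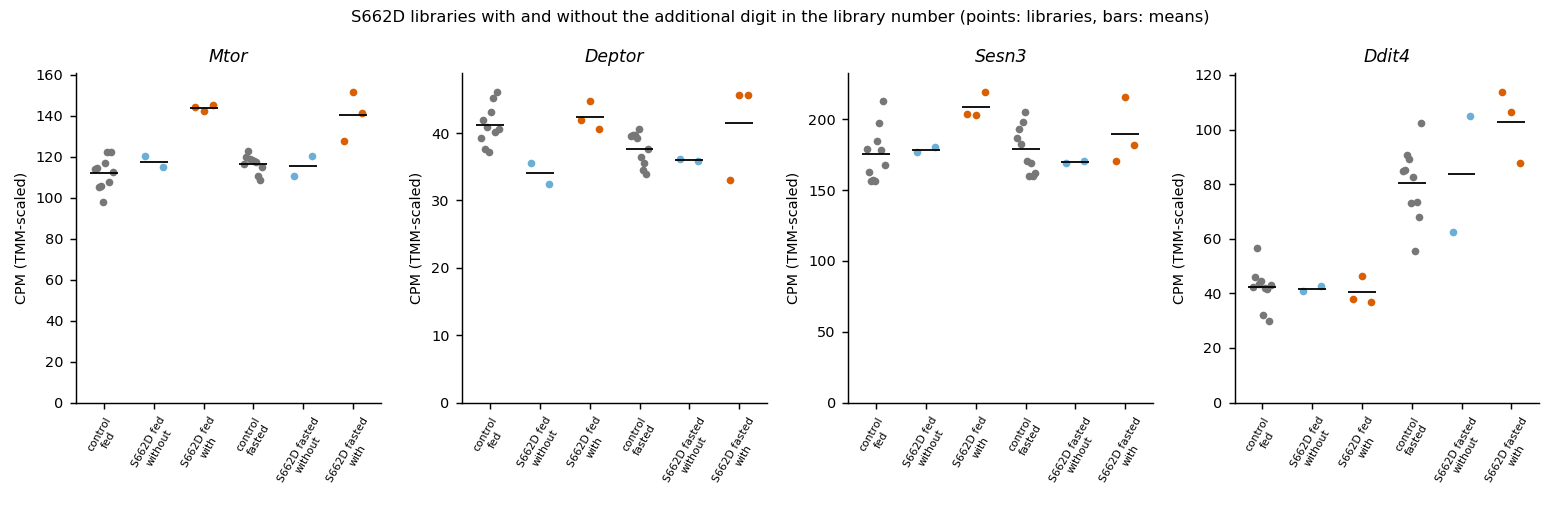
CPM of Mtor, Deptor, Sesn3 and Ddit4 (vertical axes, linear from 0) by feeding state in controls, in S662D libraries that lack the final digit and in S662D libraries that carry it; points are libraries and bars are means. Mtor in fed S662D mice lies above every fed control in the libraries with the digit and within the fed controls in those without.

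The labelled knockout gave no call among the 10 members. Against fasted controls, 0.0277% of all genes were called. Without adjustment no member had a p below 0.05 in edgeR, and DESeq2 also called 0 members. Ddit4 stood at 93.6, 77.6, 99.4, 93.1 and 93.3 CPM in the labelled knockout, inside the 55.6 to 102 CPM of fasted controls, and its log2 difference had an interval from -0.08 to 0.44. Sesn1 stood at 61.0, 58.7, 56.5, 60.8 and 66.6 CPM, against 49.8 to 65.9 CPM in fasted controls (0.11, adjusted p = 0.842). Ddit4l had its lowest group mean here, 1.92 ± 0.36 CPM against 2.30 ± 0.38 CPM in fasted controls (-0.25, adjusted p = 0.867). Against fasted S662D mice, where 7.34% of all genes were called, edgeR called 0 members and DESeq2 called 1, Sesn1. In edgeR 3 members had an unadjusted p below 0.05: Sesn1 (0.19, adjusted p = 0.0645), Sesn2 (-0.20, adjusted p = 0.125) and Mtor (-0.19, adjusted p = 0.0735). With S662D libraries that carry the digit alone, Mtor differed by -0.29 (adjusted p = 0.000351) and Sesn2 by -0.29 (0.0194), and with the others by -0.02 (0.967) and -0.06 (0.892). Sesn1 gave 0.10 (adjusted p = 0.395) with the digit libraries and 0.34 (0.0545) with the others. In this comparison 4 of 6 endothelial markers (sums of 137 to 159 against 153 to 218 CPM) and 2 of 3 precursor markers (273 to 291 against 276 to 376 CPM) were lower in the labelled knockout. So was 1 of 4 markers of pericytes and mural cells (89.8 to 101 against 92.4 to 129 CPM). Higher in the labelled knockout were 2 of 6 markers of hypothalamic neurons (500 to 665 against 461 to 648 CPM). The part of all these markers was not tested.

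The wider pathway was read from 8 lists of 86 further genes, of which 85 were tested. On fasting in controls 5 rose and 1 fell, and in S662D mice 5 rose and 1 fell, beside 3.88% and 2.64% of all genes called in either direction. The median log2 fold change over the lists was 0.01 in both, against 0.00 for all genes. None of the 8 mTOR partners (such as Mlst8 and Rictor), the 3 genes of RHEB and the third TSC subunit, or the 13 Rag GTPase and Ragulator genes, which carry the amino acid signal at the lysosome, was called by edgeR or DESeq2 in either fasting comparison. Without adjustment, p lay below 0.05 for 1, 1 and 1 of them in controls and for 1, 0 and 2 in S662D mice. Of the 13 genes of GATOR and its sensors, the 1 called was Gatsl3, also known as Castor1, which encodes the arginine sensor. It rose from 4.21 ± 0.56 to 6.35 ± 1.47 CPM in controls (0.59, edgeR adjusted p = 0.000558) and from 3.34 ± 0.46 to 6.09 ± 1.45 CPM in S662D mice (0.85, adjusted p = 0.000587).

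Of the 15 tested substrates and effectors, Sgk1 alone was called on fasting. It encodes a kinase activated by mTORC2 and is a classical glucocorticoid-induced gene. Its level was 40.9 to 89.5 CPM in fed and 113.7 to 300.6 CPM in fasted controls (1.87, edgeR adjusted p = 1.9e-09). In S662D mice it was 40.6 to 52.9 CPM in fed and 154.8 to 319.0 CPM in fasted mice (2.53, adjusted p = 8.5e-09). Fed and fasted mice did not overlap in either genotype, a separation found for 0.515% of all genes in controls and 3.3% in the smaller S662D groups. Among the 19 genes of insulin, PI3K and AMPK input, 0 were called in controls (4 at an unadjusted p below 0.05, 0 in DESeq2). In S662D mice 1 was called, Prkab1, a regulatory subunit of AMPK (0.23, edgeR adjusted p = 0.0423). It stood at 12.2 ± 0.98 CPM in fed and 14.3 ± 0.48 CPM in fasted S662D mice. In controls Prkab1 stood at 14.5 ± 0.93 CPM in fed and 14.7 ± 0.78 CPM in fasted mice, so the low group was fed S662D. Txnip and Klf15, listed as partners of DDIT4 or negative regulators, rose in both genotypes. Txnip, whose protein binds thioredoxin and limits glucose uptake, ranged from 14.6 to 20.6 CPM in fed and from 25.5 to 51.7 CPM in fasted controls (1.19, adjusted p = 2e-09). Klf15, a transcription factor of the fasting response in liver and muscle, went from 34.5 ± 2.62 to 47.5 ± 5.73 CPM (0.46, adjusted p = 2.1e-05).

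Of 8 transcription factors known to act on the stress inhibitors, Foxo1 rose and Nr3c1 fell in fasted controls. Foxo1, which insulin signalling keeps out of the nucleus, ranged from 15.2 to 22.4 CPM in fed and from 18.7 to 28.1 CPM in fasted mice (0.34, edgeR adjusted p = 0.00312). Nr3c1, the glucocorticoid receptor gene, went from 109.1 ± 9.85 to 91.6 ± 6.79 CPM (-0.25, adjusted p = 0.00155) and in S662D mice from 115.5 ± 10.5 to 92.0 ± 9.93 CPM (-0.33, adjusted p = 0.00517). Foxo1 was not called in S662D mice. In the labelled knockout 0 of the 85 genes were called against fasted controls (3 at an unadjusted p below 0.05, 0 in DESeq2). Against fasted S662D mice 5 of the 85 were lower, where 7.34% of all genes were called and 4.72% were lower. The count was not tested against that share. These 5 genes were Irs1, Akt2, Stk11, Eif4ebp2 and Larp1. Their log2 differences ran from -0.19 (Akt2) to -0.36 (Irs1), with edgeR adjusted p-values of 0.0215 to 0.0417. Means in the labelled knockout, fasted controls and fasted S662D mice were 11.1, 11.9 and 14.4 CPM for Irs1. In the same order they were 48.3, 50.3 and 54.95 CPM for Akt2 and 73.1, 76.2 and 83.2 CPM for Stk11. Eif4ebp2 stood at 18.6, 19.6 and 23.6 CPM and Larp1 at 150.5, 152.8 and 172.2 CPM. These genes were not tested separately by the additional digit.

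The transcripts whose levels followed each of the 3 fasting-responsive members most closely were found by Pearson r on log2 CPM over the 35 libraries, among 15479 genes. These r are a description, since all points share the groups, and r after removing group means is given beside each. For Ddit4 they were Arl4d, a small GTPase of the ARF family (0.97, within groups 0.87), Arrdc2, an alpha-arrestin (0.95, within groups 0.75), and F3, tissue factor (0.95, within groups 0.74). For Sesn1 they were Fkbp5, a co-chaperone of the glucocorticoid receptor (0.92, within groups 0.68), Fam107a (0.92, within groups 0.76) and Gjb6, the astrocytic connexin 30 (0.92, within groups 0.73). For Ddit4l, with its lower counts, they were Rfx4 (0.80, within groups 0.55), Fzd10 (0.80, within groups 0.51) and Trib2 (0.79, within groups 0.53).

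Within fed and within fasted controls, Ddit4 was compared with each of the other 9 members, giving 18 relations over 10 mice each. By Pearson r none passed adjustment over the 18 in a two-sided permutation test, and 3 had an unadjusted p below 0.05. In fed controls Ddit4 and Sesn3 gave r = -0.78 (permutation p = 0.00788, adjusted 0.142) and Spearman rho = -0.90 (permutation p = 0.00086, adjusted 0.0155). Without the 2 mice farthest from the median of Ddit4, r was -0.57. In fasted controls the same pair gave r = 0.31 and rho = 0.32 (permutation p = 0.384 and 0.368, adjusted 0.635 and 0.473). Each control set holds 5 mice per feeding state, too few for r within a set, and the sets differ in both genes: in fed controls replicates 1 to 5 had higher Ddit4 and lower Sesn3 means (46.6 and 162.4 CPM) than replicates 6 to 10 (37.8 and 188.2 CPM).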

How the data were processed

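Raw counts per gene were deposited, with a file for each library. They were made with featureCounts 2.0.1 by gene name against GENCODE vM12 (mm10), per the file headers. Reads that map to several places counted at each of them, so repeated exons can add reads to a gene. No strand option was set, so exons that overlap another gene can change its count in a direction not examined here. The submitters' processing notes name STAR 2.7.10b. Counts were tested with edgeR 4.0.16 in R 4.3.3 (filterByExpr by group with a minimum count of 10, TMM scaling, glmQLFit with robust estimation, glmQLFTest) in 1 fit of all 35 libraries with a mean per group. Benjamini-Hochberg adjustment ran over the 18063 genes, with calls below 0.05. Log2 CPM used a prior count of 2. Alternatives were DESeq2 1.42.0, other scalings and filters, subsets of libraries and each library left out. The script was tested on simulated data.

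The 10 members, the pathway and marker lists and the tests were chosen with earlier results of these data known. Members are all described, listed pathway genes are named where called on fasting or in a comparison with the labelled knockout, and the 3 genes most correlated with each member called on fasting in controls are named. Replicate numbers were checked for pairing: same-numbered libraries of 2 groups had correlations of their deviations from -0.19 to 0.24, so the numbers were not taken to pair mice. The labels do not say that mice came from separate litters or cages, and p-values measure the spread between these libraries. No pair of libraries of the same group agreed within sampling noise (lowest chi-square per degree of freedom 2.53). Pairs from different groups were checked only for identical counts, and no identical pair was found. Promoter windows and motif shares come from RefSeq (GRCm38.p6).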

Additional observations from a re-analysis of the deposited data

Results flagged for a closer look

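Sesn3 stood at 215.6 CPM in fasted PER2-S662D replicate 3, while the other 4 mice of that group lay between 169.2 and 181.9 CPM. The gap passes Dixon's 95% critical value for groups of 5. Of 50 groups of a member and a condition, this was the 1 that did, and chance alone gives about 1 in 20. That library carries the additional digit.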

How the results depend on the processing

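Ddit4 on fasting in controls kept its call and direction in all 29 alternatives (0.86 to 1.01). Of the 10 members, 3 were called on fasting in controls, against 4 with control replicates 1 to 5, 1 with replicates 6 to 10, 2 with the replicate block and 2 to 3 with single libraries left out. For fasting in S662D mice the count was 1, against 2 with the digit libraries, 0 with the others and 1 to 2 with single libraries left out. For the difference between the responses it was 0, against 1 with control replicates 1 to 5 (Sesn3, -0.37, adjusted p = 0.0325), and 0 with any library left out. For S662D against control in fed mice it was 1, against 2 and 0 with control replicates 1 to 5 and 6 to 10, 4 and 0 with and without the digit, 0 with the digit as a term, 4 with the replicate block (Mtor, Sesn3, Rptor and Ddit4, the last at -0.18) and 0 to 2 with single libraries left out. In fasted mice it was 0, against 1 without a filter and with DESeq2, 3 with the digit libraries and 0 to 3 with single libraries left out. For the labelled knockout against S662D it was 0, against 1 with library size only and with DESeq2, 3 with the digit libraries and 0 to 1 with single libraries left out; against controls it was 0 throughout. The replicate block changed no other member's call except Ddit4l (adjusted p = 0.0924). Against controls of 1 feeding state, replicates 6 to 10 occur only among the controls. There the block in effect compares with control replicates 1 to 5 only and is no separate check (Ddit4 in fed S662D mice -0.18 and -0.19). DESeq2 called 11 of the 85 pathway genes for S662D against control in fed mice and 8 for the labelled knockout against S662D, where edgeR called 5 and 5. Of the 18 Pearson relations of Ddit4, 0 passed adjustment, also without TMM and without the 2 mice farthest from the median, while Spearman rho passed for 1 (Sesn3 in fed controls). The share of all genes called under each alternative is not given beside these counts, so they describe the calls only. Subsets hold fewer mice, with 2 per feeding state for S662D libraries without the digit. Of all genes, 14.6% differed between S662D libraries with and without the digit. The fasting response of 16.7% of all genes differed between the control sets. The cause of these shifts was not tested. Depth limits Ddit4l most, with 26 to 176 counts per library.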
